A study of Mus musculus with 15 samples.

Results

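Lysyl hydroxylases and collagen galactosyltransferases are the enzymes that form hydroxylysine in collagen and attach sugar to it. The 5 genes described here, Plod1, Plod2, Plod3, Colgalt1 and Colgalt2, were taken by symbol from the 22557 genes of the deposited expression table, and all 5 passed the filter on low values. Inside the endoplasmic reticulum, LH1, LH2 and LH3, the products of Plod1, Plod2 and Plod3, hydroxylate lysines of procollagen chains before the triple helix folds. COLGALT1 and COLGALT2 then add galactose to hydroxylysine, and LH3, which also has glycosyltransferase activity, adds glucose to the galactose. Type IV collagen, the network-forming collagen of the basement membrane around brain vessels, carries many of these sugars. Mouse embryos without LH3 fail to assemble basement membranes properly.

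Bulk RNA sequencing was done on cerebral vessels of wild-type C57BL/6 mice aged 8 months, with 15 libraries in 3 groups of 5. LH3-AL mice received an adeno-associated virus (AAV) for LH3 by stereotactic injection into the brain and then angiotensin II with L-NAME, which blocks nitric oxide synthases. Together these drugs cause hypertension, and the series studied brain haemorrhage that arises under it. GFP-AL mice received an AAV for green fluorescent protein and the same drugs. GFP-Veh mice received the GFP virus and saline. All 3 groups therefore carried an AAV, and no group carried the LH3 virus with saline. The promoter of the vectors, the species of the LH3 sequence and whether each library came from its own mouse were not given in the sources used here. P-values therefore measure the spread between these libraries.

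Estimated depth was 18.0 to 31.6 M fragments (M, mega) in LH3-AL. In GFP-AL it ranged over 21.2 to 27.8 M, and in GFP-Veh over 13.5 to 16.0 M for replicates 1 to 4, with 29.8 M for replicate 5. Genes with at least 1 FPKM numbered 11967 in GFP-AL replicate 3, the fewest, and 12446 to 13457 elsewhere. Over all genes tested, libraries of a group correlated at 0.960 to 0.987 in LH3-AL, 0.932 to 0.970 in GFP-AL and 0.948 to 0.982 in GFP-Veh. GFP-AL replicates 2 and 3 and GFP-Veh replicate 2 had stood apart in an earlier analysis of the table, and the main results are also given without them. All 15 endothelial markers were in the table and passed the filter. Their summed level was 3331 to 4992 FPKM in LH3-AL, 4430 to 6383 FPKM in GFP-AL and 3566 to 4920 FPKM in GFP-Veh. In these bulk libraries fewer cells of a type and less RNA per cell cannot be told apart.

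Plod3, the gene supplied by the LH3 virus, lies on chromosome 5 (ENSMUSG00000004846, 136987019 to 136996648, plus strand, GRCm38). Znhit1 lies beside it on the other strand and overlaps it: of 2 RefSeq starts of Znhit1, 1 lies before the start of Plod3 and 1 inside Plod3, as do the starts of 4 of its 6 GENCODE transcripts. The 114 bases between the start of Plod3 and the nearest RefSeq start of Znhit1 (GRCm38.p6) hold 9 CpG dinucleotides and 54.4% G or C, and they are annotated as UTR in 1 GENCODE transcript of Znhit1. From them 30 RefSeq bases (chr5:136986953-136986982, plus strand, 5′ to 3′) are shown, which lie before the chromosomal start of the gene that the virus supplied. The window was placed around the ACGTG found there, so its presence in the window is not a result. Capitals mark ACGTG, one form of the core of hypoxia response elements, whose other form is GCGTG.
Plod3 upstream: cttgaagtcattACGTGatgttcccttgga
Both strands of the 114 bases were searched. ACGTG occurred 1 time, GCGTG 2 times, and the GC box GGGCGG, the TATA element TATAAA and the CCAAT box 0 times, with 0 overlaps among these occurrences. Among the same number of bases before the starts of 32851 RefSeq promoters, 9.01% held ACGTG, 17.1% held GCGTG, 26.0% held GGGCGG, 6.11% held TATAAA and 20.6% held CCAAT. A match of letters is a description and not a site. Promoter entries of Plod1, Plod3 and Colgalt1 matched, 3 of the 5 members.

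Plod3 mRNA was highest in every library of the LH3 virus. LH3-AL replicates 1 to 5 had 21.16, 21.32, 22.86, 19.53 and 23.16 FPKM (fragments per kilobase of transcript and per a fixed number of mapped fragments), GFP-AL replicates 12.18, 14.57, 13.62, 14.40 and 14.90 FPKM, and GFP-Veh replicates 16.87, 16.45, 16.96, 17.63 and 15.96 FPKM. No library of one group reached the range of another: all 5 LH3-AL libraries lay above all others, and all 5 GFP-AL libraries below all others. The mean was 21.6 ± 1.46 FPKM in LH3-AL, 13.9 ± 1.09 in GFP-AL and 16.8 ± 0.621 in GFP-Veh (SD, n = 5 each).

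Against the same drugs with the control virus, Plod3 rose by 0.60 ± 0.08 on the log2(FPKM + 1) scale (SE; 95% interval 0.44 to 0.76; limma adjusted p = 1.07e-04), a ratio of mean FPKM of 1.55. It ranked 104th by p among the 13082 genes tested. In GFP-AL against GFP-Veh, Plod3 fell by 0.25 ± 0.08 (95% interval -0.42 to -0.09; limma adjusted p = 0.0216), a ratio of 0.831. That call was lost with median-of-ratios scaling (-0.16, limma adjusted p = 0.156), when these 2 groups alone were fitted (adjusted p = 0.0585), with depth as a covariate (adjusted p = 0.0985), and without GFP-Veh replicate 4 (adjusted p = 0.0573) or GFP-AL replicate 1 (adjusted p = 0.0524). LH3-AL stood 0.34 above GFP-Veh (95% interval 0.18 to 0.51), a ratio of 1.29, and missed the threshold (limma adjusted p = 0.0628). It passed without GFP-AL replicate 1 (adjusted p = 0.0458) or GFP-AL replicate 2 (adjusted p = 0.0477), through the shared estimate of the spread, and under 4 other settings. The GFP-AL libraries enter both of the first 2 differences, and the GFP-Veh libraries both of the last 2.

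Colgalt2, which encodes a collagen galactosyltransferase (chromosome 1, 152399830 to 152510695, plus strand), changed by more than any other member in both comparisons that involve GFP-AL. LH3-AL replicates had 9.56, 7.99, 8.58, 8.74 and 7.53 FPKM, GFP-AL replicates 5.24, 3.56, 2.66, 4.74 and 3.46 FPKM, and GFP-Veh replicates 6.998, 7.59, 11.2, 9.84 and 7.37 FPKM. Every GFP-AL library lay below every library of the other 2 groups, and LH3-AL and GFP-Veh overlapped. The mean was 8.48 ± 0.774 FPKM in LH3-AL, 3.93 ± 1.04 in GFP-AL and 8.59 ± 1.81 in GFP-Veh (SD, n = 5 each).

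In LH3-AL against GFP-AL, Colgalt2 rose by 0.96 ± 0.15 (SE; 95% interval 0.65 to 1.28; limma adjusted p = 4.47e-04), a ratio of mean FPKM of 2.16. In GFP-AL against GFP-Veh it fell by 0.97 ± 0.15 (95% interval -1.28 to -0.65; limma adjusted p = 2.92e-04), a ratio of 0.458. Both calls held under all 11 other settings and in each fit without 1 library. Between LH3-AL and GFP-Veh the 95% interval of the difference was -0.32 to 0.31 (limma adjusted p = 0.999). In the authors' deposited table for GFP-AL and GFP-Veh, Colgalt2 has a log2 fold change of -1.12 (q = 2.33e-04). In the authors' deposited table named for LH3-AL and GFP-Veh it has 1.11 (q = 4.26e-05). All 1746 genes of that second table have the sign of LH3-AL minus GFP-AL in the deposited FPKM, and 58.9% have that of LH3-AL minus GFP-Veh, so its name goes against its values. Plod1, Plod2, Plod3 and Colgalt1 are listed in neither table. These tables list only 1764 and 1746 genes, so absence does not mean that the authors found a gene unchanged.

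**Figure D1:**
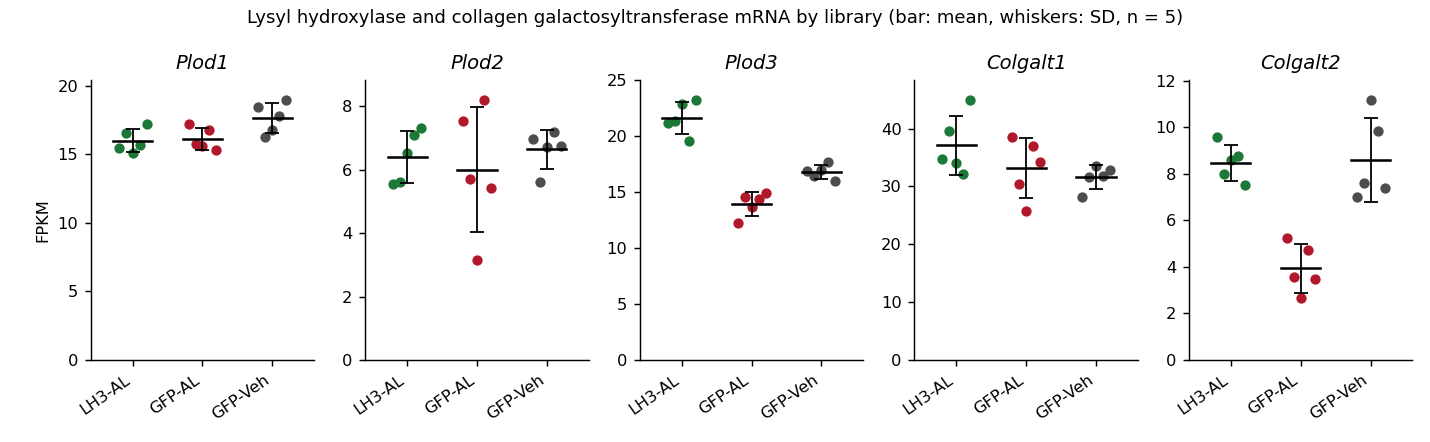
FPKM of the 5 enzymes (vertical axes from 0) in the 5 libraries of LH3-AL, GFP-AL and GFP-Veh; each point is a library, the bar is the mean and the whiskers are the SD. Plod3 averaged 21.6, 13.9 and 16.8 FPKM with no overlap between groups, and Colgalt2 was lower in all 5 GFP-AL libraries than in the other 10, while Plod1, Plod2 and Colgalt1 overlapped in all comparisons.

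Plod1, which encodes the hydroxylase of helical lysines that is lost in kyphoscoliotic Ehlers-Danlos syndrome in people, lies on chromosome 4 (147909753 to 147936767, minus strand) and passed in no comparison. It averaged 16.0 ± 0.854 FPKM in LH3-AL, 16.1 ± 0.816 in GFP-AL and 17.7 ± 1.11 in GFP-Veh (SD, n = 5 each), and each pair of groups overlapped. LH3-AL differed from GFP-AL by -0.01 ± 0.07 on the log2(FPKM + 1) scale (95% interval -0.16 to 0.14; limma adjusted p = 0.926). GFP-AL differed from GFP-Veh by -0.12 ± 0.07 (95% interval -0.28 to 0.03; limma adjusted p = 0.215). LH3-AL differed from GFP-Veh by -0.13 (95% interval -0.29 to 0.02; limma adjusted p = 0.633).

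Plod2, which encodes the hydroxylase of telopeptide lysines and is a known target of hypoxia-inducible factor, lies on chromosome 9 (92542223 to 92608428, plus strand). It had 5.55, 5.60, 6.52, 7.08 and 7.32 FPKM in LH3-AL, 7.53, 5.72, 3.15, 8.18 and 5.44 FPKM in GFP-AL, and 6.95, 5.60, 6.73, 7.19 and 6.75 FPKM in GFP-Veh. GFP-AL held both the lowest library, replicate 3, and the highest, replicate 4, and all pairs of groups overlapped. Plod2 differed by 0.13 ± 0.17 in LH3-AL against GFP-AL (95% interval -0.23 to 0.49; limma adjusted p = 0.592) and by -0.17 ± 0.17 in GFP-AL against GFP-Veh (95% interval -0.53 to 0.19; adjusted p = 0.464). Without GFP-AL replicate 3 both differences turned round, to -0.05 and 0.0012, and neither passed. LH3-AL differed from GFP-Veh by -0.05 (95% interval -0.41 to 0.31; limma adjusted p = 0.960).

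Colgalt1, which encodes the other collagen galactosyltransferase and whose loss in people causes a small vessel disease of the brain, lies on chromosome 8 (71610998 to 71624911, plus strand) and was the most abundant member. It had 34.7, 39.7, 34.1, 32.2 and 44.9 FPKM in LH3-AL, 38.5, 30.4, 25.8, 37.1 and 34.3 FPKM in GFP-AL, and 28.1, 31.6, 33.5, 31.8 and 32.9 FPKM in GFP-Veh. The highest library was LH3-AL replicate 5 and the lowest GFP-AL replicate 3, and all pairs of groups overlapped. LH3-AL differed from GFP-AL by 0.16 ± 0.12 (95% interval -0.09 to 0.41; limma adjusted p = 0.309) and from GFP-Veh by 0.22 (95% interval -0.03 to 0.46; adjusted p = 0.620). GFP-AL differed from GFP-Veh by 0.06 ± 0.12 (95% interval -0.19 to 0.30; limma adjusted p = 0.732).

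Counted over the family, 2 of 5 members, Plod3 and Colgalt2, were higher in LH3-AL than in GFP-AL, and both were lower in GFP-AL than in GFP-Veh. Among all 13082 genes tested, 28.5% passed in LH3-AL against GFP-AL (17.0% higher, 11.4% lower) and 28.6% in GFP-AL against GFP-Veh (10.8% higher, 17.7% lower). With 5 members, a share near that background is not a result about the family. Groups did not overlap at 2 members in each comparison, against 19.4% and 16.7% of all genes. In LH3-AL against GFP-Veh 0 of 5 members passed with limma, against 0.520% of all genes. At 1 of 5 members (Plod3) these groups did not overlap, against 4.67% of all genes. With library weights 2 members passed there (Plod3 and Plod1), but so did 1195 of the 13082 genes, against 68 without weights. The median log2 difference of the members was 0.16, -0.0007 and -0.17 in LH3-AL against GFP-AL, LH3-AL against GFP-Veh and GFP-AL against GFP-Veh, and that of all genes 0.08, -0.01 and -0.09. With median-of-ratios scaling the split of all called genes moved to 1782 higher and 1895 lower, against 2227 and 1496, in LH3-AL against GFP-AL. Between GFP-AL and GFP-Veh it moved to 1842 higher and 1711 lower, against 1416 and 2321.

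**Figure D2:**
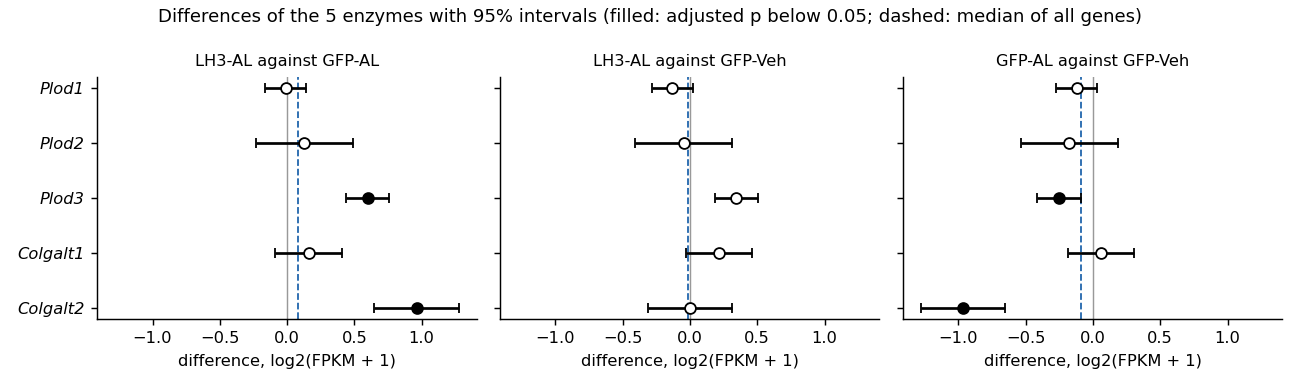
Log2(FPKM + 1) differences of the 5 enzymes (horizontal axis) with 95% intervals in the 3 comparisons; filled points have an adjusted p below 0.05 and the dashed line is the median of all genes tested. Colgalt2 stands at 0.96 in LH3-AL against GFP-AL and at -0.97 in GFP-AL against GFP-Veh, and Plod3 at 0.60 and -0.25.

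The order of the members by FPKM, which is scaled to transcript length, differed between groups. In LH3-AL it was Colgalt1, Plod3, Plod1, Colgalt2 and Plod2, and the libraries of each neighbouring pair did not overlap. In GFP-AL it was Colgalt1, Plod1, Plod3, Plod2 and Colgalt2, and Plod2 and Colgalt2 overlapped. In GFP-Veh it was Colgalt1, Plod1, Plod3, Colgalt2 and Plod2, and Plod1 overlapped Plod3 as Colgalt2 overlapped Plod2. Set among all genes tested, mean Plod3 stood at percentile 84.9 in LH3-AL, 75.1 in GFP-AL and 79.4 in GFP-Veh. Mean Colgalt2 stood at percentile 61.3, 37.9 and 61.3, and Colgalt1 at 92.2, 90.3 and 90.1.

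Within a library, Plod3 made up 46.1% to 51.4% of the summed Plod FPKM in LH3-AL, 33.0% to 42.1% in GFP-AL and 38.3% to 42.9% in GFP-Veh. The mean share was 49.1% ± 1.97 in LH3-AL, 38.8% ± 3.91 in GFP-AL and 40.9% ± 1.80 in GFP-Veh (SD, n = 5 each), so Plod3 was the largest of the 3 hydroxylases by mean in LH3-AL and Plod1 in both other groups (36.4%, 44.8% and 43.0%). The summed Plod level was 44.0 ± 2.24 FPKM in LH3-AL, 36.1 ± 2.52 in GFP-AL and 41.1 ± 1.74 in GFP-Veh. Colgalt2 made up 18.8% ± 3.16 of the summed Colgalt FPKM in LH3-AL, 10.5% ± 1.22 in GFP-AL and 21.2% ± 2.88 in GFP-Veh. All 5 shares in GFP-AL lay below the lowest of the other groups, 14.4%.

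Set against the collagen chain that LH3 is known to modify in basement membranes, the order was another. Plod3 stood at 19.5 ± 4.16 FPKM per 100 FPKM of Col4a1 in LH3-AL, 31.1 ± 3.62 in GFP-AL and 16.5 ± 0.987 in GFP-Veh (SD, n = 5 each). The 5 GFP-AL libraries (27.1 to 36.4) lay above all others, and LH3-AL (13.4 to 24.8) overlapped GFP-Veh (15.9 to 18.3). Per 100 FPKM of Col4a2 the values were 22.7 ± 4.88 in LH3-AL, 41.2 ± 8.86 in GFP-AL and 23.8 ± 1.04 in GFP-Veh, and LH3-AL (16.1 to 28.7) overlapped GFP-AL (26.9 to 51.3). Mean Col4a1 was 116 FPKM in LH3-AL, 45.13 in GFP-AL and 101.5 in GFP-Veh, and mean Col4a2 was 99.46, 35.45 and 70.56. Plod3 and both chains thus had their lowest mean in GFP-AL, where the ratios were highest. The ratios were chosen after the levels were seen and carry no test.

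**Figure D3:**
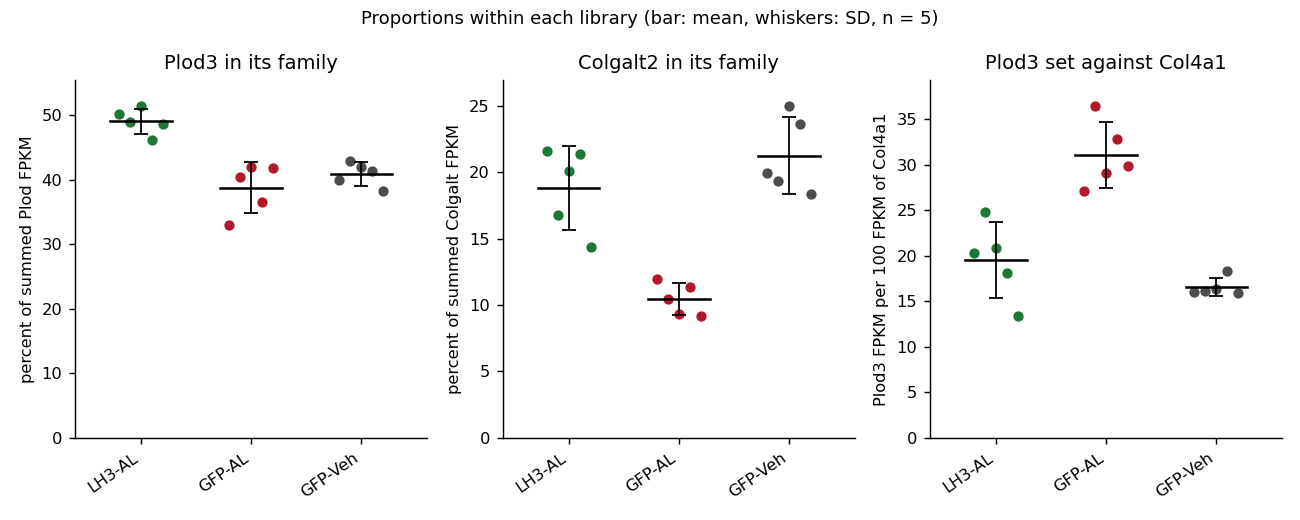
Plod3 as a percent of the summed Plod FPKM, Colgalt2 as a percent of the summed Colgalt FPKM, and Plod3 FPKM per 100 FPKM of Col4a1, by library (points) with mean and SD. Plod3 averaged 49.1% of its family in LH3-AL, while per 100 FPKM of Col4a1 it was highest in GFP-AL at 31.1. Mean Col4a1 and mean Plod3 were both lowest in GFP-AL.

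The exons of 3 members overlap those of another gene, and whether the counting used strand was not given in the sources used here. Exons of Plod3 share 529 bases, 11.7% of its exon length, with the exons of the Znhit1 transcripts that start inside it, on the opposite strand. Znhit1, a subunit of a chromatin remodelling complex, had 9.06, 8.35, 7.05, 8.21 and 8.99 FPKM in LH3-AL, 7.66, 11.8, 6.68, 8.98 and 6.91 FPKM in GFP-AL, and 7.95, 13.3, 8.79, 8.85 and 8.90 FPKM in GFP-Veh. All groups overlapped at Znhit1. It differed by 0.01 in LH3-AL against GFP-AL (limma adjusted p = 0.965) and by -0.17 in GFP-AL against GFP-Veh (limma adjusted p = 0.398). Colgalt1 shares 495 bases, 11.4%, with Unc13a, a synaptic vesicle priming gene, which passed in no comparison, and Plod2 shares 346 bases, 6.42%, with the unclassified transcript Gm38391. Reads of the vector and of the mouse gene were not separated at Plod3.

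Partners of the hydroxylases passed at 3 genes, none of them higher in LH3-AL. Of 10 tested, 0 were higher and 2 lower in LH3-AL than in GFP-AL, and 2 were higher and 1 lower in GFP-AL than in GFP-Veh. Of all genes tested, 17.0% were higher and 11.4% lower in the first comparison, and 10.8% higher and 17.7% lower in the second. With 10 genes, such counts are not a result about the list. Fkbp10, which encodes the chaperone FKBP65 that assists LH2, averaged 7.54 FPKM in LH3-AL, 11.5 in GFP-AL and 7.06 in GFP-Veh. It fell by 0.55 in LH3-AL against GFP-AL (limma adjusted p = 0.00491) and was 0.65 ± 0.12 higher in GFP-AL than in GFP-Veh (adjusted p = 0.00138), and GFP-AL overlapped neither other group. P4hb, which encodes protein disulfide isomerase, averaged 90.2, 133 and 92.1 FPKM in LH3-AL, GFP-AL and GFP-Veh. It fell by 0.56 in LH3-AL against GFP-AL (limma adjusted p = 0.00127) and was 0.53 higher in GFP-AL than in GFP-Veh (adjusted p = 0.00147).

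Serpinh1, which encodes the collagen chaperone HSP47, had 58.3, 48.2, 56.6, 58.3 and 67.2 FPKM in LH3-AL, 53.5, 82.1, 43.0, 62.3 and 53.4 FPKM in GFP-AL, and 94.5, 177.7, 83.8, 81.5 and 72.5 FPKM in GFP-Veh. GFP-AL replicate 2 reached the GFP-Veh range, and GFP-Veh replicate 2 stood far above its group. Serpinh1 fell by 0.74 ± 0.21 in GFP-AL against GFP-Veh (limma adjusted p = 0.0178; 0.147 with depth as a covariate) and differed by -0.0025 between LH3-AL and GFP-AL (adjusted p = 0.994). LH3-AL lay below GFP-Veh without overlap and missed the threshold (-0.74, limma adjusted p = 0.207). Fkbp14, P3h1, P3h3, P3h4, Crtap, Ppib and Tmem38b, which serve prolyl or lysyl hydroxylation, folding and calcium release, made up the other 7 partners and passed in no comparison.

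The genes that sort LH3 and those tested that break hydroxylysine down passed in no comparison. Vps33b and Vipas39, which form the complex that delivers LH3 to post-Golgi carriers, and Rab10, a small GTPase of that route, differed by 0.07, 0.20 and 0.09 in LH3-AL against GFP-AL (limma adjusted p = 0.662, 0.291 and 0.461). Cercam, a paralogue of the galactosyltransferases that lacks known galactosyltransferase activity, differed by 0.22 (limma adjusted p = 0.567). Pgghg, which encodes the glucosidase of glucosylgalactosyl hydroxylysine, averaged 3.57 FPKM in LH3-AL, 2.89 in GFP-AL and 3.81 in GFP-Veh. It differed by 0.23 in LH3-AL against GFP-AL (limma adjusted p = 0.157) and by -0.32 in GFP-AL against GFP-Veh (limma adjusted p = 0.0598). Phykpl, which cleaves phosphohydroxylysine, averaged 1.26, 1.01 and 1.04 FPKM in LH3-AL, GFP-AL and GFP-Veh. Hykk, the hydroxylysine kinase, averaged 0.862, 0.397 and 0.713 FPKM in the same groups and was not tested because its mean lay below 1 FPKM.

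Lysyl oxidases, which turn lysine and hydroxylysine into the aldehydes of collagen cross-links, moved opposite to Plod3 at 2 of 4 genes tested. Of all genes tested, 11.4% were lower in LH3-AL than in GFP-AL and 10.8% higher in GFP-AL than in GFP-Veh. Lox had 3.56, 2.16, 3.27, 2.57 and 2.65 FPKM in LH3-AL, 7.84, 7.76, 7.61, 6.16 and 5.32 FPKM in GFP-AL, and 2.64, 2.85, 2.85, 2.21 and 2.58 FPKM in GFP-Veh. All 5 GFP-AL libraries lay above the other 10. Lox fell by 1.05 in LH3-AL against GFP-AL (limma adjusted p = 6.48e-05) and was 1.12 ± 0.12 higher in GFP-AL than in GFP-Veh (adjusted p = 2.19e-05). Loxl2 averaged 1.99, 3.88 and 1.88 FPKM in LH3-AL, GFP-AL and GFP-Veh, with differences of -0.70 (limma adjusted p = 7.82e-04) and 0.75 (adjusted p = 3.40e-04) in the same comparisons. Loxl1 and Loxl3 did not pass, and Loxl3 ran the other way (0.23, limma adjusted p = 0.0770, and -0.25, adjusted p = 0.0537). Loxl4 lay below the filter.

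**Figure D4:**
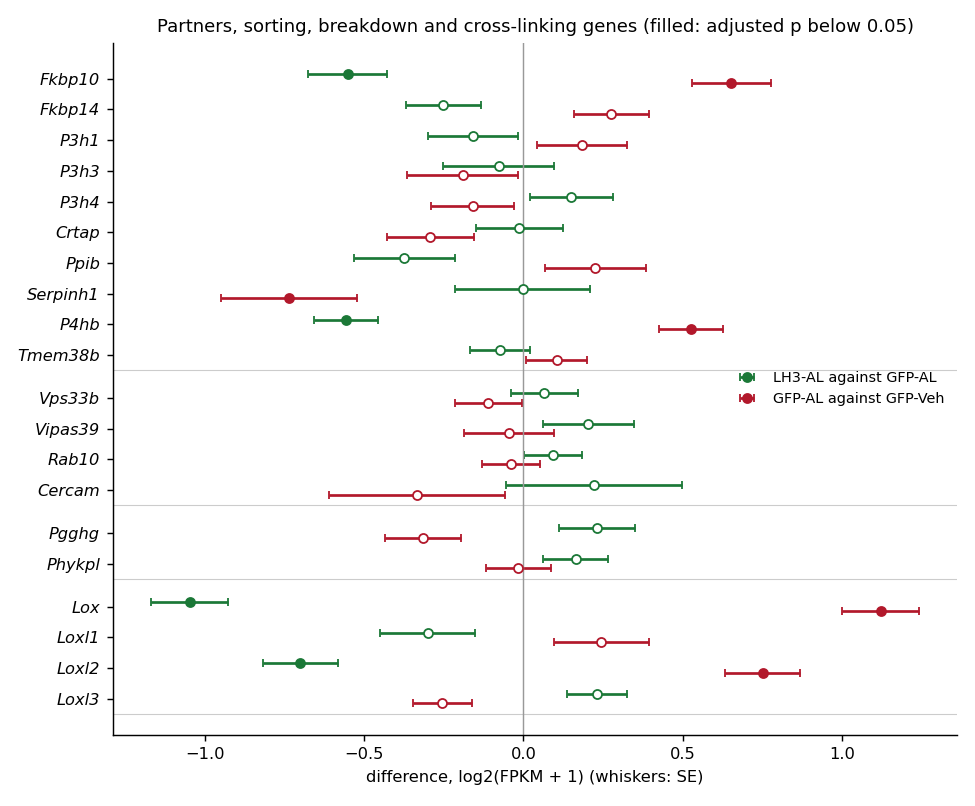
Log2(FPKM + 1) differences (horizontal axis, whiskers are SE) of partners of the hydroxylases, LH3 sorting and galactosyltransferase-like genes, hydroxylysine breakdown genes and lysyl oxidases, from top to bottom; green is LH3-AL against GFP-AL and red is GFP-AL against GFP-Veh. Filled points have an adjusted p below 0.05: Fkbp10, P4hb, Lox and Loxl2 in both comparisons, and Serpinh1 at -0.74 in GFP-AL against GFP-Veh.

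Collagen substrates were counted apart from other proteins with collagen-like domains. Of 18 vessel collagens tested, 6 were higher and 0 lower in LH3-AL than in GFP-AL, and 1 was higher and 5 lower in GFP-AL than in GFP-Veh. Of all genes tested, 17.0% were higher and 11.4% lower in the first comparison, and 10.8% higher and 17.7% lower in the second. The list's median difference was 0.28 and -0.19, against 0.08 and -0.09 for all genes. Col4a1 and Col4a2, the chains of the main vascular type IV collagen, differed by 1.31 and 1.46 in LH3-AL against GFP-AL and by -1.16 and -1.01 in GFP-AL against GFP-Veh. Col4a5, a further type IV chain, differed by 0.69 and -0.73 in these comparisons, and Col15a1, a collagen of basement membrane zones, by 0.91 and -0.95. The limma adjusted p of these 4 genes was at most 0.00309 in both comparisons. Col18a1, the endostatin-bearing collagen, was the 1 gene higher in GFP-AL than in GFP-Veh (0.66, limma adjusted p = 0.00234) and was named after its values were seen. Of the fibrillar chains, likewise named afterwards, Col5a1 was higher in LH3-AL (0.71 against GFP-AL, limma adjusted p = 0.0245), and Col1a1, Col1a2, Col3a1, Col5a2 and Col5a3 passed in no comparison. The call of Col5a1 was lost with library weights (limma adjusted p = 0.0680), without GFP-AL replicate 3 (0.0595) or LH3-AL replicate 2 (0.0620), and without the 3 libraries that stood apart (0.125). Without GFP-AL replicates 2 and 3 and GFP-Veh replicate 2 the counts were 4 higher and 1 lower in LH3-AL against GFP-AL, and 3 higher and 4 lower in GFP-AL against GFP-Veh.

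Proteins that carry a collagen-like domain without being collagens ran the other way at 4 of 8 genes tested. Over all genes tested, 11.4% were lower in LH3-AL than in GFP-AL and 10.8% higher in GFP-AL than in GFP-Veh. Msr1, a scavenger receptor, and C1qa, C1qb and C1qc, the chains of complement C1q, fell, with differences of -1.32, -1.47, -1.57 and -1.36 in LH3-AL against GFP-AL, with limma adjusted p of at most 6.13e-04. In GFP-AL against GFP-Veh they rose by 1.55, 1.38, 1.53 and 1.34, with limma adjusted p of at most 7.05e-04. C1qa averaged 85.8 FPKM in LH3-AL, 246 in GFP-AL and 97.3 in GFP-Veh. The 3 C1q genes are also among the 15 microglia and macrophage markers, 11 of which were lower in LH3-AL than in GFP-AL and 10 higher in GFP-AL than in GFP-Veh. The summed level of those markers was 361.6 to 426.2 FPKM in LH3-AL, 808.9 to 1358 FPKM in GFP-AL and 265.8 to 616 FPKM in GFP-Veh, and their part in these results was not tested. Cthrc1, a secreted collagen-repeat protein, was the 1 gene of the list with the course of Plod3 (0.40, limma adjusted p = 0.0240, and -0.49, adjusted p = 0.00796), and both its calls were lost without the 3 libraries (adjusted p = 0.0852 and 0.0767).

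Markers of several other cell types also moved. Those of choroid plexus, oligodendrocytes, pericytes and smooth muscle that passed did so in the directions of Plod3 and Colgalt2. Of 10 choroid plexus markers 7 were higher in LH3-AL than in GFP-AL and 8 lower in GFP-AL than in GFP-Veh, with a summed level of 3327 to 5508 FPKM in LH3-AL, 2090 to 3234 FPKM in GFP-AL and 3903 to 9471 FPKM in GFP-Veh. Of 10 oligodendrocyte markers 5 were higher in LH3-AL and 7 lower in GFP-AL in these comparisons, with 491.2 to 1091 FPKM in LH3-AL, 342.2 to 896 FPKM in GFP-AL and 698.3 to 1045 FPKM in GFP-Veh. Of 9 pericyte markers 3 were higher and 3 lower in the same way, with 1337 to 1661 FPKM in LH3-AL, 838.9 to 1418 FPKM in GFP-AL and 1395 to 1762 FPKM in GFP-Veh. Of 10 smooth muscle markers 1 was higher and 2 lower in the same way, with 672.3 to 977.7 FPKM in LH3-AL, 652.4 to 822.2 FPKM in GFP-AL and 749.3 to 1256 FPKM in GFP-Veh. Both smooth muscle counts lay near the shares of all genes. Neutrophil markers ran the other way, with 7 of the 7 tested lower in LH3-AL than in GFP-AL and 5 higher in GFP-AL than in GFP-Veh. The summed level of the 8 listed was 37.0 to 61.9 FPKM in LH3-AL, 109.7 to 921.9 FPKM in GFP-AL and 77.3 to 217.8 FPKM in GFP-Veh. Red cell markers passed at 0 of 7 in LH3-AL against GFP-AL, at 7 of 7, all higher, in GFP-AL against GFP-Veh, and at 3 of 7, all higher, in LH3-AL against GFP-Veh. Endothelial markers split: of 15, LH3-AL had 2 higher and 5 lower than GFP-AL. GFP-AL had 6 of the 15 higher and 4 lower than GFP-Veh. Of 10 fibroblast markers 2 were higher and 1 lower in the first of these comparisons, and 1 higher and 2 lower in the second. Of 10 astrocyte markers 1 was higher and 1 lower in the first, and 1 higher and 3 lower in the second. Of 11 neuron markers 2 were higher in the first, and 0 passed in the second. With lists this short, these fibroblast, astrocyte and neuron counts are not a result about those cell types. Without GFP-AL replicates 2 and 3 and GFP-Veh replicate 2, 3 oligodendrocyte, 2 pericyte and 2 smooth muscle markers were higher in LH3-AL than in GFP-AL, and 6, 1 and 0 markers of these types were lower in GFP-AL than in GFP-Veh. None of these markers was below 0.1 FPKM in all libraries, and their part in the results on Plod3 and Colgalt2 was not tested. Without the same 3 libraries, Colgalt2 differed by 0.80 in LH3-AL against GFP-AL (limma adjusted p = 0.00351) and by -0.84 in GFP-AL against GFP-Veh (limma adjusted p = 0.00266). Plod3 then differed by 0.61 (limma adjusted p = 5.10e-04) and -0.27 (adjusted p = 0.0326).

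Across the 15 libraries the genes most like each member in log2(FPKM + 1), by Pearson's r and with no test, differed from member to member. For Plod3 they were Col4a2 (r = 0.89), Amd1 (0.89) and Ldoc1l (0.85). With each group's mean taken out, these 3 values dropped to 0.47, 0.29 and 0.09, so the likeness lay mostly between groups. For Colgalt2 they were Efr3b, Zak and Pigg (each 0.96), which kept 0.80, 0.81 and 0.79 within groups. For Plod2 they were Mpp7 (0.90), Cul2 (0.86) and Smc2 (0.85), which fell to 0.70, 0.56 and 0.55 at the lowest when 1 library was left out. For Colgalt1 they were Incenp (0.88), Rnf14 (0.87) and Dsn1 (0.81), and for Plod1 they were Ap1m1 (0.77), Car9 (0.77) and Abca7 (0.76). Between members, Plod3 and Colgalt2 had r = 0.68 over all libraries and -0.19 within groups, and Plod2 had 0.65 with Colgalt1 and 0.63 with Colgalt2 within groups. GFP-AL replicate 3 was the lowest of its group at Plod2, Colgalt1 and Colgalt2 (3.15, 25.8 and 2.66 FPKM). The r between members was not computed without single libraries. All these values share libraries, depth and scaling.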

How the data were processed

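Bulk RNA from cerebral vessels was sequenced in 15 libraries. STAR 2.5.1b and the build mm8 are named in the submitters' processing notes. Strandedness and read counting were not given in the sources used here. For 22557 genes the authors deposited FPKM values, per the file headers. Of these values 5.99% lie below 0, which FPKM cannot do, and 0 values are exactly 0. The deposited values therefore cannot all be unaltered FPKM, and the shares, ratios and percentiles rest on them as they stand. Values below 0 were set to 0. The authors also deposited tables with log2 fold changes, p-values and q-values for 2 contrasts. No read counts were used, so no counting interval is given. Depth was read from the steps of low values, which were whole within 0.1 read at 43.0% to 65.2% of values of up to 10 reads, too few for a count test.

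Rows sharing a symbol (31 symbols) were summed. Library titles gave the groups. Genes averaging 1 FPKM or more (13082) were fitted as log2(FPKM + 1) on group, all 15 libraries together, with limma 3.58.1 (R 4.3.3) and an intensity trend. P-values were Benjamini-Hochberg adjusted per comparison over all of them and called below 0.05. Differences are on that log2 scale, which understates changes of low genes. GENCODE M21 (GRCm38) gave positions and exon lengths for 22400 rows; no coordinate was converted from mm8. Sequence came from RefSeq. Scripts were tested on simulated data.

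The members, the 6 pathway lists, the 11 marker lists and the tests were chosen with earlier results of these data known. Named were the 5 members, Col4a1 and Col4a2, all genes of lists of up to 5, in longer lists up to 4 called genes by smallest p, the 3 most correlated genes per member (predicted genes and small RNAs left out) and genes with overlapping exons; partners that did not pass and other exceptions were named after their values were seen. Alternatives were 11 other settings and 15 fits without 1 library.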

Additional observations from a re-analysis of the deposited data

Results flagged for a closer look

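The 5 members, some of the other genes named, and the shares and ratios gave 90 groups of 5 values. In 8 of these groups a library's gap to its nearest neighbour exceeded 0.71 of the group's range. Chance alone gives such a gap in about 1 of 20 groups. Named genes outside that set were not examined, though some hold such gaps, such as Cercam in LH3-AL replicate 2 (13.97 FPKM, others 5.927 to 6.99). GFP-Veh replicate 2 accounted for 4 of the 8 flagged. It had Serpinh1 at 177.7 FPKM (others 72.5 to 94.5), P4hb at 107.0 FPKM (others 87.1 to 89.4), Znhit1 at 13.3 FPKM (others 7.95 to 8.90), and a Plod2 share of 14.6% of the summed Plod FPKM (others 16.2% to 16.9%). LH3-AL replicate 5 had Col4a1 at 172.5 FPKM (others 86.0 to 109.7) and P4hb at 105.3 FPKM (others 84.3 to 89.1). GFP-AL replicate 4 had Col4a2 at 53.5 FPKM (others 28.4 to 34.0). GFP-Veh replicate 4 had Plod3 at 18.3 FPKM per 100 FPKM of Col4a1 (others 15.9 to 16.4). No cause of these values was tested.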

How the results depend on the processing

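Under 11 other settings and 15 fits without 1 library, Plod3 (0.53 to 0.64) and Colgalt2 (0.80 to 1.12) stayed higher and past the threshold in LH3-AL against GFP-AL, as did the fall of Colgalt2 in GFP-AL against GFP-Veh (-1.12 to -0.84). Without 1 library these 3 ranged over 0.55 to 0.63, 0.86 to 1.06 and -1.06 to -0.86. Plod3 in LH3-AL against GFP-Veh passed with a mean of at least 5 FPKM (0.34, limma adjusted p = 0.0366), quantile normalization (0.38, 0.0263), a fit of only the 2 groups (0.34, 0.0368) and library weights (0.32, 0.00689), and ranged over 0.32 to 0.38 without 1 library. Plod3 in GFP-AL against GFP-Veh lost its call with median-of-ratios scaling (-0.16), the 2 groups only (-0.25) and depth as a covariate (-0.25), and ranged over -0.28 to -0.21 without 1 library. Colgalt2 in LH3-AL against GFP-Veh turned positive with a pseudocount of 0.1 (0.00095), median-of-ratios scaling (0.016), quantile normalization (0.020), depth (0.040) and library weights (0.00031), and ranged over -0.061 to 0.089 without 1 library. Plod1 turned positive in LH3-AL against GFP-AL with quantile normalization (0.023; -0.035 to 0.012 without 1 library) and passed in LH3-AL against GFP-Veh with library weights (-0.18, limma adjusted p = 0.0364). Colgalt1 turned negative in GFP-AL against GFP-Veh with depth (-0.047). Without GFP-AL replicates 2 and 3 and GFP-Veh replicate 2, Plod2 turned round in LH3-AL against GFP-AL (-0.11; -0.048 to 0.24 without 1 library) and in GFP-AL against GFP-Veh (0.010; -0.29 to 0.0012 without 1 library). Znhit1 in LH3-AL against GFP-AL turned negative with median-of-ratios scaling (-0.058) and quantile normalization (-0.011), and ranged over -0.056 to 0.13 without 1 library. The causes were not tested.

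Genes called numbered 3723 in LH3-AL against GFP-AL, 68 in LH3-AL against GFP-Veh and 3737 in GFP-AL against GFP-Veh. With a mean of at least 5 FPKM, where fewer genes are tested, 2109 and 2174 passed in the first and last. With depth as a covariate 2359 passed in GFP-AL against GFP-Veh and 4 in LH3-AL against GFP-Veh, where 176 passed with the 2 groups only, 1195 with library weights and 158 without the 3 libraries. Without 1 library the counts ranged over 2658 to 4291, 27 to 110 and 2840 to 4437. The replicate numbers do not pair the libraries (correlations -0.261 to 0.286); with the replicate number as a block 3879, 31 and 3783 genes passed, and Plod3 in GFP-AL against GFP-Veh kept its call (limma adjusted p = 0.0377).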
